A study of Brassica oleracea var. italica with 2 samples.

Results

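The chitinase genes described here are 10 Arabidopsis gene models represented on the array, each by 1 probe set that the annotation table assigns to a single gene, out of 13350 gene names reached by such probe sets. They were chosen by gene name, and with their signals on these same arrays already known: CHI and AT2G43620 had the highest bound and the highest ratio of any named gene. Every value below is therefore a description, with no test. By textbook classification, 9 of the genes encode glycosyl hydrolase family 19 proteins and 1, ChiC, encodes a family 18 protein. They fall into a tandem group of 6 neighbouring genes, AT2G43570 (listed as CHI) to AT2G43620, and 4 genes elsewhere, AT1G02360, AT3G47540, AT4G01700 and ChiC (AT4G19810).

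The study hybridised 2 arrays of Arabidopsis probe sets with RNA from whole broccoli seedlings, Brassica oleracea var. italica, cultivar Elegance. The vector array held seedlings with the empty binary vector pCAMBIA1380, and the antisense array held seedlings with 35S::antisenseBoEMF2.1, both in a wild type background and both 11 days old and grown in long days (16 h light, 8 h dark). The 35S promoter drives expression in most plant tissues, and the number of transgenic lines and of pooled seedlings behind each array is not given in the sources used here. BoEMF2.1 is a broccoli relative of Arabidopsis EMF2, a Polycomb group gene, and the annotation names 0 probe sets for EMF2, so the targeted gene was not analysed here. Its antisense label rests on the title and source name, since the genotype entry of that sample lists the 35S construct without the word antisense.

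Chitinases cut chitin, the polymer of N-acetylglucosamine in fungal cell walls and insect cuticles, which plants do not make. Many plant chitinases are secreted or vacuolar defence proteins, grouped with the pathogenesis-related proteins, and their genes commonly respond to fungi, wounding, salicylic acid, jasmonate or ethylene. The fragments they release from fungal walls are sensed by LysM receptor kinases such as CERK1. Family 19 and family 18 enzymes have unrelated folds, and family 19 genes often occur in tandem arrays. Broccoli descends from an ancestor whose genome was multiplied after its lineage split from that of Arabidopsis, so an Arabidopsis probe set can face several broccoli copies of a gene.

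Signals are MAS5 values on a linear scale in arbitrary units, and ratios are log2 of the antisense over the vector signal. A signal at or below the median of its array, 317.6 for vector and 302.7 for antisense, was raised to that floor, and the ratio then is a bound. With both signals below the floors no ratio was taken. With 1 array per group no value has a replicate error. Where a gene name had 2 probe sets above both floors, as 31 did, their ratios gave an SD per probe set of 0.44 on the log2 scale, which covers probe noise within these arrays and not variation between plants. Across species, a low signal can reflect mismatches between a broccoli transcript and an Arabidopsis probe as well as a low transcript level, so signals are compared between arrays for the same probe set and not between genes. All 10 probe sets carry the plain suffix of sets designed for 1 Arabidopsis transcript. How far broccoli transcripts of the tandem genes cross-hybridise to each other's probes was not tested, so their ratios may not be independent of each other.

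The antisense array gave higher signals than the vector array for 9 of the 10 chitinase genes, where 47.9% of all 22746 non-control probe sets were higher. The 9 include AT2G43600 and AT1G02360, which were below the floors on both arrays. All 6 tandem genes had the higher signal on the antisense array, though AT2G43600 had 22.4 on the vector and 25.6 on the antisense array. Among the 9389 probe sets below both floors, 40.1% had a ratio of deposited signals at least as high as that of AT2G43600. AT3G47540 was the single member with the higher signal on the vector array. Over the 8 members with a ratio or bound, the values ran from -0.19 to 4.59, and 4 were 2-fold or more higher on the antisense array while 0 were 2-fold or more lower. Over all 13357 probe sets with a ratio or bound, 3.43% were 2-fold or more higher and 4.17% were 2-fold or more lower. Since the family was picked for this difference, the counts carry no weight beyond description, and the 3 members that entered by a signal above the floor on the antisense array alone had to come out on that side.

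**Figure D1:**
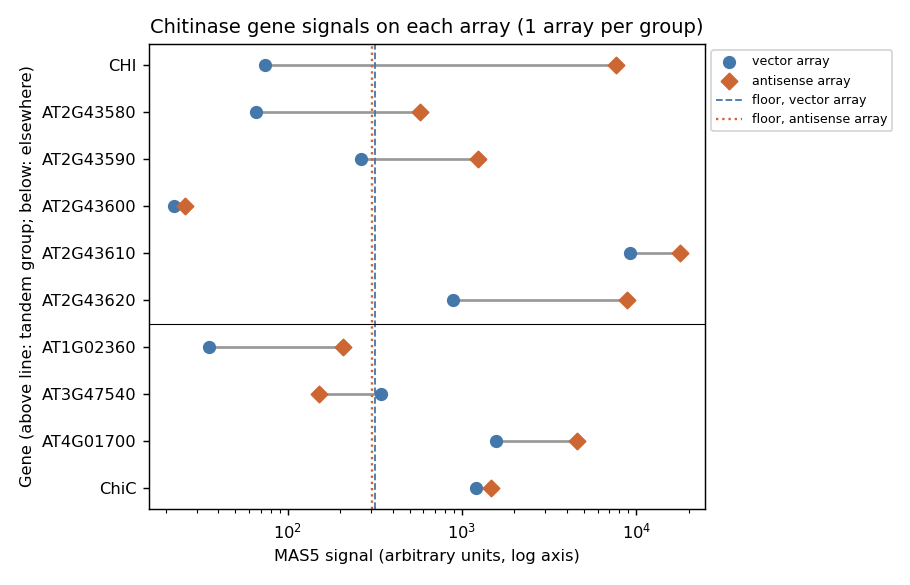
MAS5 signal of each chitinase gene (x axis, arbitrary units, log scale) on the vector array (circles) and the antisense array (diamonds), with the floor of each array as a vertical line; the tandem group stands above the horizontal line and the other members below it. CHI spans from 73.8 to 7664, AT2G43600 has 22.4 and 25.6, far left of the floors, and AT3G47540 alone has its vector signal on the right.

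Within the tandem group, CHI differed most. The vector array gave 73.8, below the floor, and the antisense array 7664, so that it was at least 24.1-fold higher there, a bound of 4.59 on the log2 scale. Among the 1988 probe sets above the floor on the antisense array alone, its bound was at rank 2, behind a probe set without a gene name. It was at rank 1 of the 1160 with a single gene. Such ranks follow the antisense signal alone, since the vector side of each bound is the floor. By the deposited signals, 0.05% of the 1988 had a ratio at least as high. In terms of position within its own array, which does not depend on how the arrays were scaled, CHI went from percentile 20.9 of the signals on the vector array to percentile 98.8 on the antisense array.

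AT2G43620, at the other end of the tandem group, was above the floor on both arrays. The vector signal was 882.5 and the antisense signal 8882.8, a ratio of 3.33. This was the second highest of 9382 ratios measured on both arrays, after a probe set without a gene name, and the highest of the 4972 with a single gene. Its position moved from percentile 83.8 to percentile 99.0.

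The vector signal of AT2G43590 was 263.5, a little below the floor, and its antisense signal was 1239.4. It was at least 3.90-fold higher on the antisense array, a bound of 1.96, at rank 12 of the 1988 bounds of its kind. As for CHI, this rank follows the antisense signal alone. AT2G43590 thus passed 2-fold as CHI did, by a bound, while the bound of AT2G43580 stayed under it. AT2G43580 had signals of 65.8 and 576.1 and was at least 1.81-fold higher, a bound of 0.86. Among bounds of this kind, 2 of the 3 tandem genes passed 2-fold, against 8.8% of all 1988 probe sets. That count also follows the antisense signal alone. By the deposited signals AT2G43590 stood 4.70-fold higher, and 17.0% of those 1988 probe sets had a ratio at least as high. AT2G43580 stood 8.76-fold higher, with 5.28% of them at least as high.

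AT2G43610 had a vector signal of 9175.4 and an antisense signal of 17786.4, a ratio of 0.95 or 1.94-fold. It was thus just under 2-fold, at rank 324 of the 9382 ratios. Its position, near the top of both arrays, went from percentile 99.1 to percentile 99.5. AT2G43600, between AT2G43590 and AT2G43610 in the gene order, had signals of 22.4 and 25.6, both below the floors. No ratio was taken for it, and whether its broccoli counterpart is silent or does not match the probes cannot be told apart here.

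The members elsewhere in the genome went different ways. AT4G01700 had a vector signal of 1557.7 and an antisense signal of 4589.8, a ratio of 1.56 or 2.95-fold, at rank 44 of 9382. With AT2G43620 it made 2 of the 4 members measured on both arrays that were 2-fold or more higher, where 3.02% of all 9382 probe sets were. ChiC, the family 18 member, had signals of 1209.7 and 1469.7, a ratio of 0.28, which is smaller than the SD of a single ratio, 0.44. The gene number of ChiC in the annotation lies between those of AT4G19740 and AT4G19820, inside the cluster of family 18 genes on the same chromosome.

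AT3G47540 had a vector signal of 344.7 and an antisense signal of 150.8, below the floor. It was at least 1.14-fold lower on the antisense array, a bound of -0.19, with no bound of 2-fold, where 11.5% of the 1987 probe sets above the floor on the vector array alone passed 2-fold lower. By its deposited signals it stood 2.29-fold lower, and 50.3% of those 1987 probe sets had a ratio of deposited signals at least as low. AT1G02360 had signals of 35.3 and 208 and was below the floors on both arrays, so no fold was taken. Among the 9389 probe sets below both floors, the log2 ratios of the deposited signals had an SD of 1.43, against 0.54 above both floors, and 3.94% of them had a ratio at least as high as that of AT1G02360.

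**Figure D2:**
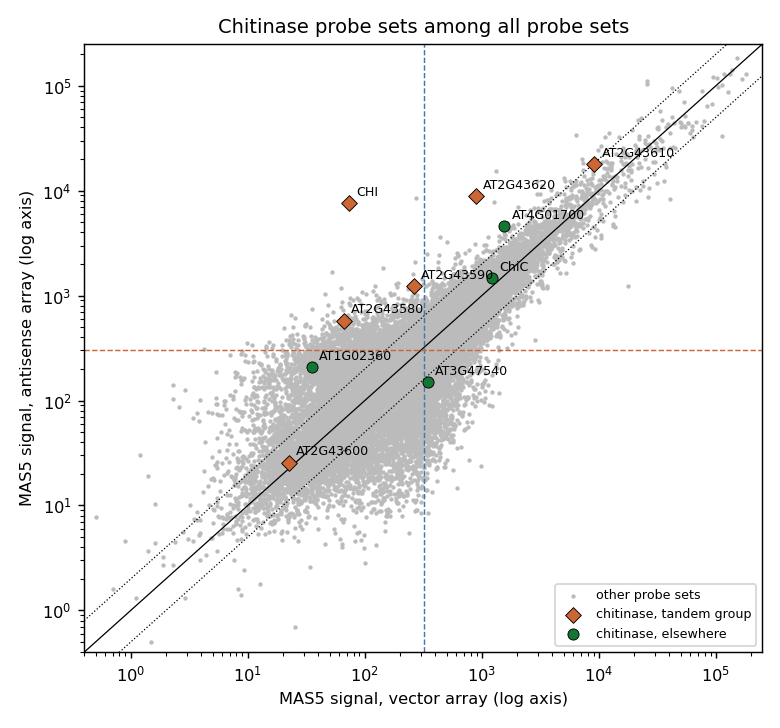
Signal on the antisense array (y axis) against the vector array (x axis), both MAS5 units on log axes, for all non-control probe sets (grey), the tandem chitinase genes (diamonds) and the other members (green circles); the solid line is equality, dotted lines are 2-fold, dashed lines are the floors. CHI and AT2G43620 stand above the cloud, ChiC lies inside it, and the cloud is wide below the floors.

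Among the 4 members measured on both arrays, the order from the highest ratio was AT2G43620 (3.33), AT4G01700 (1.56), AT2G43610 (0.95) and ChiC (0.28). The difference of 2 such ratios has an SD of 0.62 from probe noise, and the gap of 0.60 between AT4G01700 and AT2G43610 was within it. Of the 4 members with a bound, AT2G43590 and AT2G43580 have a place in that order that is fixed from below only. CHI, at 4.59 or more, stood above AT2G43620 by at least 1.26. AT3G47540, at -0.19 or less, stood below ChiC by at least 0.47. That least gap is under the SD of a difference, but the full gap may be larger. With no floor AT3G47540 stood at -1.19. AT2G43590, at 1.96 or more, stood above AT4G01700 by at least 0.41. AT2G43580, at 0.86 or more, stood above ChiC by at least 0.58. Both least gaps are under the SD of a difference, and each gene could stand higher than its bound. The floor sets these bounds: with the floor at the 25th percentile, AT2G43580 stood at 2.58 as a bound and AT2G43590 at 2.23.

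The tandem group had a median of 1.96 over 5 genes with a ratio or bound, and the members elsewhere had a median of 0.28 over 3 genes. Of these values, 3 in the tandem group and 1 elsewhere are bounds set by the floor. Over the members measured on both arrays, 2 in each group, the medians were 2.14 and 0.92, and with no floor they were 2.68 over 6 genes and 0.92 over 4. Over all 13357 probe sets with a ratio or bound the median was -0.03. The median of the tandem group is a bound itself, since it is the value of AT2G43590. Without CHI, a symbol that is also in use for chalcone isomerase, the tandem median was 1.46 over 4 genes. The gene number of CHI in the annotation lies between those of AT2G43560 and AT2G43580, which places it in the tandem group.

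The genes on either side of the tandem group were looked up as well. Taking the 10 nearest single-gene probe sets before CHI and the 10 after AT2G43620 in the order of gene numbers, 13 of 20 had a ratio or bound, from -1.14 to 0.45 with a median of -0.39. Of these, 10 were negative and 3 positive, where 47.0% of all probe sets with a ratio or bound were positive. The 4 bounds among them were above the floor on the vector array alone and had to be negative. By size, 0 were 2-fold or more higher and 1 was 2-fold or more lower. Beside 3.43% and 4.17% over all probe sets, these counts do not set the neighbours apart. The other 7 were below the floors on both arrays, among them AT2G43530 with signals of 18.1 and 191.9, or 10.6-fold by the deposited values, and AT2G43780 with signals of 41.4 and 126.2, or 3.05-fold. The window was chosen after the values of the tandem genes were known. Gene order is that of Arabidopsis, and the order of the broccoli genes was not analysed here.

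Directly before CHI, AT2G43560 had signals of 534.7 and 372.5, a ratio of -0.52, and AT2G43550 had signals of 464.7 and 634, a ratio of 0.45. Directly after AT2G43620, AT2G43630 had signals of 323.1 and 376.6, a ratio of 0.22, and AT2G43640 had signals of 1498.3 and 2048.5, a ratio of 0.45. The gene past 2-fold lower was ETFQO, a mitochondrial electron transfer enzyme, with signals of 666.4 and 264.6 and a bound of -1.14. Among genes measured on both arrays, the tandem genes AT2G43610 and AT2G43620, at 0.95 and 3.33, stood beside 9 neighbours with a median of -0.51. The 3 other tandem genes with a value were above the floor on the antisense array alone, as none of the neighbours was, and their bounds are not set against the neighbours.

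**Figure D3:**
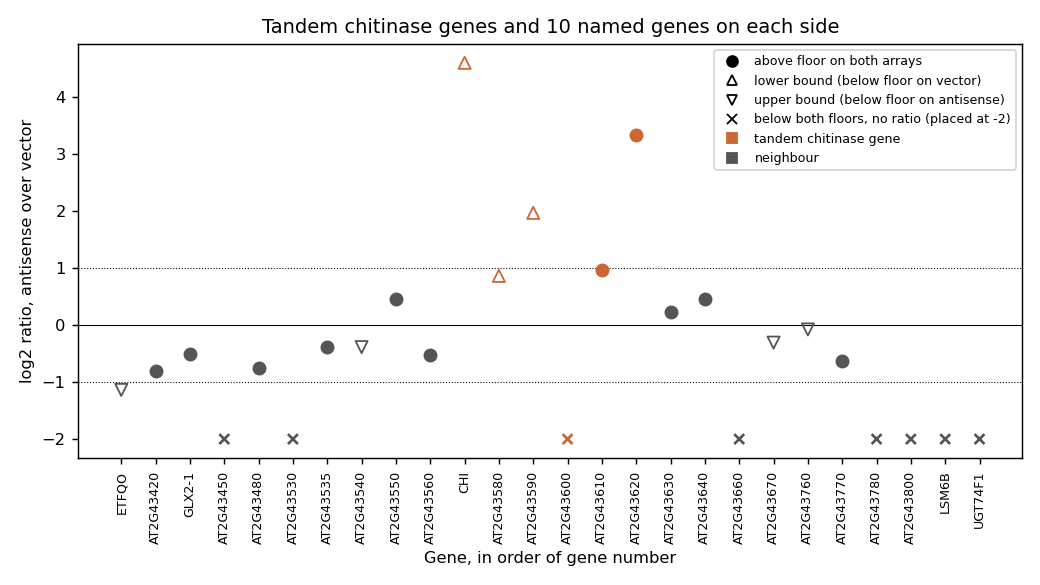
Log2 ratio of antisense over vector signal (y axis) for the tandem chitinase genes (orange) and the 10 named genes on each side (grey) in the order of Arabidopsis gene numbers (x axis); filled circles are measured on both arrays, triangles are bounds, and crosses, placed at the lower edge, have no ratio. Among genes measured on both arrays, the neighbours lie between -0.80 and 0.45 and the tandem genes at 0.95 and 3.33. Bounds, for 3 tandem genes and 4 neighbours, take their side from the array with the signal above its floor and are not compared.

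Other genes of chitin breakdown, defence and defence signalling were looked up in 6 lists with 109 entries, of which 37 were named in the annotation. It gives no gene name for 8794 of the 22810 probe sets, so an entry not named may still have a probe set. Of 14 further family 18 and 19 genes, 5 were named and 3 had a ratio or bound, with 0 past 2-fold either way. AT1G56680, a family 19 gene, had signals of 476.3 and 587.9, a ratio of 0.30. The family 18 gene AT4G19820, which follows ChiC in the gene order, had signals of 386 and 183.3, a bound of -0.35, and AT4G19730 had signals of 150.9 and 321.4, a bound of 0.02. AT4G19720 and AT4G19740 were below the floors on both arrays. With 3 values and overall shares of 3.43% and 4.17% past 2-fold, a count of 0 does not set this list apart.

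Beta-1,3-glucanases cut the glucan of fungal walls and of plant callose, and some are made together with chitinases in defence. Of 22 listed, 14 were named and 7 had a ratio or bound, with a median of 0.17, 5 positive, 2 negative and 0 past 2-fold. Over all probe sets with a ratio or bound, 47.0% were positive, and the shares of 3.43% and 4.17% past 2-fold leave a count of 0 of 7 near the background. The highest was AT3G13560, with signals of 451.5 and 837.2 and a ratio of 0.89. Next were AT1G77780 at 0.29 (439.9 and 536) and AT5G20870 at 0.27 (456.2 and 551), and AT2G27500 stood lowest at -0.23 (654 and 557.4).

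Of 21 genes for pathogenesis-related and antimicrobial proteins, 14 were named and 7 had a ratio or bound, with a median of 0.38, and 2 were 2-fold or more higher while 0 were 2-fold or more lower, beside 3.43% and 4.17% of all probe sets. PDF1.4, a defensin, had signals of 563.5 and 1828.1, a ratio of 1.70. OSM34, an osmotin-like protein of the thaumatin family, had signals of 192.3 and 640.7 and was at least 2.02-fold higher. The remaining members with values lay between -0.52 (THI2.2, a thionin, as a bound) and 0.57 (AT4G33720, a relative of PR-1, with signals of 854.9 and 1269.8). PDF1.2 and THI2.1, jasmonate-responsive marker genes, were below the floors on both arrays, with signals of 88.7 and 170.9 for PDF1.2 and of 263 and 216.8 for THI2.1. PDF1.2b, listed separately, was above both floors with signals of 729.8 and 708.6, a ratio of -0.04. Its probe set does not carry the plain suffix.

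Genes of chitin perception and hormone signalling were hardly covered by the names in the annotation. Of 12 entries for chitin receptors and associated kinases, 2 were named, and BIK1, a kinase that acts with immune receptors, had signals of 307.4 and 400.8, a bound of 0.34, while AT1G48210 was below both floors. Of 20 salicylic acid and immune regulators, 1 was named, SAG101, and it was below both floors at 172.7 and 97. Of 20 jasmonate and ethylene genes, 1 was named, EIN3, a transcription factor of the ethylene response, at -0.11 (982.1 and 911.3). Only BIK1 and EIN3 had a ratio or bound in these lists, and the state of these pathways was not measured.

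**Figure D4:**
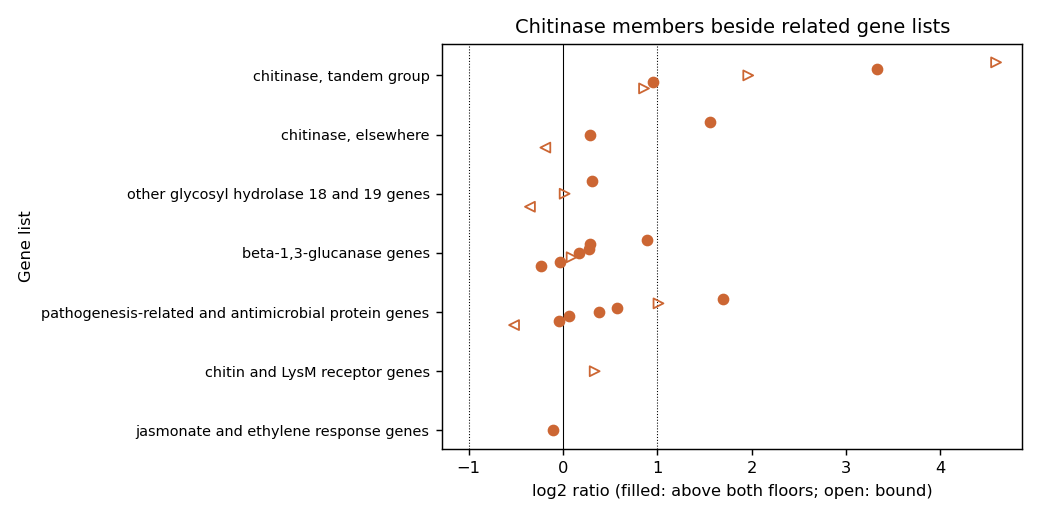
Log2 ratio of antisense over vector signal (x axis) for each gene with a value in the 2 groups of chitinase members and in the related lists (y axis); filled circles are measured on both arrays, open triangles are bounds that point towards the true ratio, and dotted lines mark 2-fold. Beyond the chitinase members, PDF1.4 at 1.70 and OSM34 at 1.01 are the points past 2-fold.

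With 2 arrays, genes can be likened to a member by the size of their ratio alone. Nearest to AT2G43620 among named genes measured on both arrays were AT4G19200 at 3.04 (436.9 and 3582), AT5G60800 at 2.69 (501.9 and 3247.8) and AILP1 at 2.11 (25693.2 and 110787), the last of them 1.22 away. Nearest to AT4G01700 were TRM15 at 1.55, AT4G30600 at 1.57 and TUA1, an alpha-tubulin, at 1.52, all within 0.04 of it. AT2G43620 thus had few genes near it, and AT4G01700 stood among genes of other kinds with equal ratios.

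In the bulk RNA of whole seedlings, a change in the share of a tissue and a change in RNA per cell cannot be told apart. Of 8 root marker entries, which hold EXPA7 both by symbol and by locus code, 3 were named. All 3 were above the floor on both arrays, with a summed signal of 2835.3 on the vector and 4097.2 on the antisense array. The root hair expansins EXPA7 and EXPA18 had ratios of 1.63 and 0.80, and the root beta-glucosidase PYK10 had one of -0.44. Of 10 shoot and leaf markers 5 were named, all above the floors, with summed signals of 42425.2 and 40059.5. Their ratios ran from -1.52 to 0.64 with a median of 0.14, and 3 were positive and 2 negative. The lower sum on the antisense array came from PSAN, with signals of 13222.1 and 4622.5, and does not stand for the other markers. None of 3 guard cell and epidermis markers or 4 seed storage markers was named. Control probe sets for both transcript ends of actin, ubiquitin and GAPDH gave 5 pairs, in which the 5′ minus the 3′ ratio ran from -0.34 to 0.62 and was positive in 4. The part of tissue makeup and of RNA quality in the chitinase ratios was not tested.

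The ratios of the 8 members with values moved little with the scaling between the arrays. Under median centring, quantile normalization, loess on brightness and scaling to the hybridization controls, CHI ranged from 4.40 to 4.62, AT2G43620 from 3.14 to 3.36, AT2G43590 from 1.77 to 2.01 and AT4G01700 from 1.37 to 1.58, and each stayed past 2-fold. AT2G43610 ranged from 0.76 to 0.98 and AT2G43580 from 0.67 to 0.94, and both stayed under 2-fold. ChiC ranged from 0.09 to 0.30 and AT3G47540 from -0.38 to -0.10. Scaling to the 18 hybridization controls shifted the median over probe sets measured on both arrays from -0.02 to -0.22, and the member ratios moved with it.

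The floor mattered more for the dim members. By the deposited signals with no floor, CHI stood at 6.70, or 104-fold, AT2G43580 at 3.13, AT1G02360 at 2.56, AT2G43590 at 2.23 and AT3G47540 at -1.19. With the floor at the 75th percentile, AT2G43590 stood at 0.96 as a bound, under 2-fold, while CHI was still at least 12.1-fold higher. AT2G43620, AT2G43610, AT4G01700 and ChiC, above the floors on both arrays, kept their values at any of these floors.

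**Figure D5:**
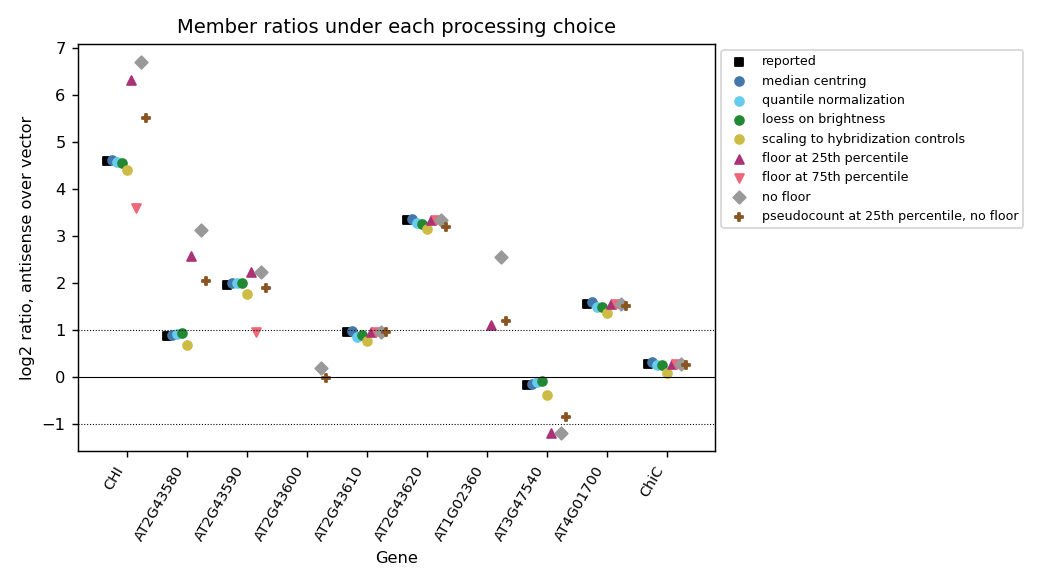
Log2 ratio of antisense over vector signal (y axis) of each chitinase gene (x axis) as reported and under each processing choice (symbols); dotted lines mark 2-fold. AT2G43620, AT2G43610, AT4G01700 and ChiC hold nearly the same value throughout, while CHI, AT2G43580, AT2G43590, AT1G02360 and AT3G47540 move with the floor.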

How the data were processed

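RNA of 1 vector and 1 antisense seedling sample was hybridised to 1 array each, and groups were taken from the sample titles. The authors deposited intensity values, linear MAS5 signals with 1 value for each probe set, per the submitters' processing notes, and the MAS5 version is not given in the sources used here. Scanner files and detection calls were not used here. Of 22810 probe sets, 64 are array controls, and the annotation table gives 1 gene for 13513. Floors were the median of 22746 non-control probe sets on each array. Gene numbers were used to order genes and to place CHI and ChiC among them. A listed gene with more than 1 probe set was represented by the brightest.

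Every member was named, and of each related list the genes past 2-fold, or otherwise up to 4 with the largest ratios; further list members and neighbouring genes were named after their values were seen. Genes like a member were the 3 with the nearest ratio. Members, lists and tests were chosen with earlier results of these data known. No p-value could be had from 1 sample per group, and the number of arrays limits the precision. Code was tested on simulated data with changes planted in probe sets well above the floors, so the bounds were hardly checked. Alternatives were 4 scalings, other floors, a pseudocount, other thresholds and other member choices. Computation used Python 3.11.15 with pandas 2.3.3, numpy 2.4.6 and statsmodels 0.14.6 for the loess, and matplotlib 3.10.9 for figures. Sequences of probes, genes and proteins were not used here.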

Additional observations from a re-analysis of the deposited data

How the results depend on the processing

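No paired analysis was possible because there is 1 array per group, which also means that none can be left out. The 4 scalings left the medians within the probe noise and the counts past 2-fold at 4 higher and 0 lower. With no floor the median over members went from 1.26 to 1.90, that of the tandem group from 1.96 to 2.68 and that of the members elsewhere from 0.28 to 0.92, and 1 member, AT3G47540, was 2-fold or more lower, since its antisense signal is then not raised to the floor. With the floor at the 25th percentile the tandem median was 2.58 and again 1 member was lower. The median elsewhere was 0.92 with the floor at the 75th percentile, which leaves 2 of these members, and 0.72 with a pseudocount. Without CHI the tandem median was 1.46. Members past 2-fold higher numbered 3 to 6 over all alternatives. Taking the mean of all probe sets of a gene changed nothing, as each member has 1, and 0 probe sets name a member together with other genes, so that alternative gave no value. Signals below the floors limit what can be said of AT2G43600 and AT1G02360.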
